A study of Mus musculus with 24 samples.

Results

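The 8 genes described here encode the corticosteroid receptors, an enzyme that supplies their hormone and 5 genes that corticosteroids are known to raise. They are Nr3c1, Nr3c2, Hsd11b1, Sgk1, Fkbp5, Tsc22d3, Zbtb16 and Lcn2. They were chosen by symbol, and all 8 were found among the 14912 genes of the table. RNA was sequenced from the left ventricles of 24 male wild-type C57BL/6J mice. In the ANG II group, 12 mice were infused with angiotensin II at 1500 ng/kg/min for 7 days from osmotic pumps placed under the skin. In the control group, 12 mice received saline for the same 7 days. No genetic change was carried by either group, the hearts of both had been flushed with saline to remove blood, and the ages of the mice are not given in the sources used here. This infusion raises blood pressure and enlarges the left ventricle, and it is used as a model of hypertensive left ventricular hypertrophy.

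Corticosteroids act through a pair of related nuclear receptors. Nr3c1 encodes the glucocorticoid receptor and Nr3c2 the mineralocorticoid receptor, and both are held in the cytoplasm by heat shock protein 90 and its immunophilin partners until hormone binds. The bound receptor enters the nucleus and activates genes such as Fkbp5, Tsc22d3, Zbtb16 and Sgk1. Heart muscle cells have little of the enzyme that removes cortisol or corticosterone, so that the mineralocorticoid receptor of these cells is mostly occupied by glucocorticoid. Angiotensin II is also the main stimulus of aldosterone release from the adrenal gland. Corticosteroid concentrations in blood and tissue were not analysed here.

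Values are given in FPKM as deposited. Plain FPKM counts fragments relative to transcript length and to all mapped fragments of a sample, so that levels of different genes can be compared. Of all values, 2741 (0.766%) were negative, which plain FPKM cannot be. Genes with tied values divided the samples into 4 sets, each of 3 control and 3 ANG II samples. The first held those numbered 1 to 3, the second 4 to 6, the third 7 to 9 and the last 10 to 12. Within each set every gene had been shifted and scaled in a step that the sources do not name. The differences within the sets before that step could be recovered for 13926 genes (93.4%), among them all 8 described here. Summed over genes, a control sample held between 482319 and 567727 FPKM and an ANG II sample between 460715 and 515185. The number of reads per sample is unknown. The cardiomyocyte marker Tnnt2 had a mean of 5876 ± 404 FPKM in control samples and 5603 ± 489 in ANG II samples (SD, n = 12 each).

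The glucocorticoid and mineralocorticoid receptors bind the same palindromic DNA element, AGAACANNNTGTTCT, in which N is any base. Its 2 arms are the hexamer TGTTCT on opposite strands. Both were looked for, on both strands, in the 250 bases before each RefSeq transcript start on GRCm38.p6. Of the 8 genes, 6 had such windows, 13 in all, and Nr3c1 and Zbtb16 had no match in the list of windows. The whole element was present in 3 of 32851 windows (0.00913%), and 1 of these 3 belonged to Sgk1. The hexamer, which the whole element contains, was present in 5284 windows (16.1%) and in 4 of the 13 windows of these genes, 3 of Sgk1 and 1 of Tsc22d3. The Sgk1 window with the whole element is chr10:21993640-21993889 on the plus strand. It lies within the span of the gene in GENCODE vM21 but overlaps no annotated exon. It is shown because it holds the element, whose first base is at position -189 from the start. The window of Fkbp5, chr17:28486150-28486399 on the minus strand, is shown beside it because Fkbp5 differed most clearly between the groups and its window holds neither motif. Capitals mark the hexamers and the whole element.
Sgk1: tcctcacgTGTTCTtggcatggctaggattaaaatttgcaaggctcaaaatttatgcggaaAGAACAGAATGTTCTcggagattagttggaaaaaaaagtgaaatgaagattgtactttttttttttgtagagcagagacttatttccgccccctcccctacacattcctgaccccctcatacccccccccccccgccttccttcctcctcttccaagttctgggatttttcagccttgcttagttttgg
Fkbp5: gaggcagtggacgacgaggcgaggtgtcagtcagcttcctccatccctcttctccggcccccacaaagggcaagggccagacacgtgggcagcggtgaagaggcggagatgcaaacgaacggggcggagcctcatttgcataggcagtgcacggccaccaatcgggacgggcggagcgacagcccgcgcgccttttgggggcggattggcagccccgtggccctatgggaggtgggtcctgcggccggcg
The letters say nothing about whether a receptor binds there, and elements farther from the start were not looked for.

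Of the 8 genes, Fkbp5, Sgk1 and Tsc22d3 rose and Nr3c2 fell in the ANG II group. Nr3c1, Hsd11b1, Zbtb16 and Lcn2 did not pass the test. The test was limma on log2(FPKM + 1) over the 14026 genes with a mean of at least 0.1 FPKM, with Benjamini-Hochberg adjustment over all of them and a call at an adjusted p under 0.05. By this rule 33.5% of all genes tested were called, 20.9% higher and 12.6% lower, so that 4 of 8 stands against a background of about 1 gene in 3. With an absolute log2 fold change over 0.5 asked as well, 5.92% of all genes tested were called and 4.52% of all genes tested were called higher, and Fkbp5 was the only one of the 8. The median log2 fold change of the 8 genes was 0.38, against 0.05 over all genes tested. With the recovered differences within sets and an exact permutation test of labels within sets, 28.5% of 13521 genes were called and 18.1% were called higher. Fkbp5, Sgk1, Tsc22d3 and Lcn2 were called higher by that test, and none of the 8 was called lower.

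**Figure D1:**
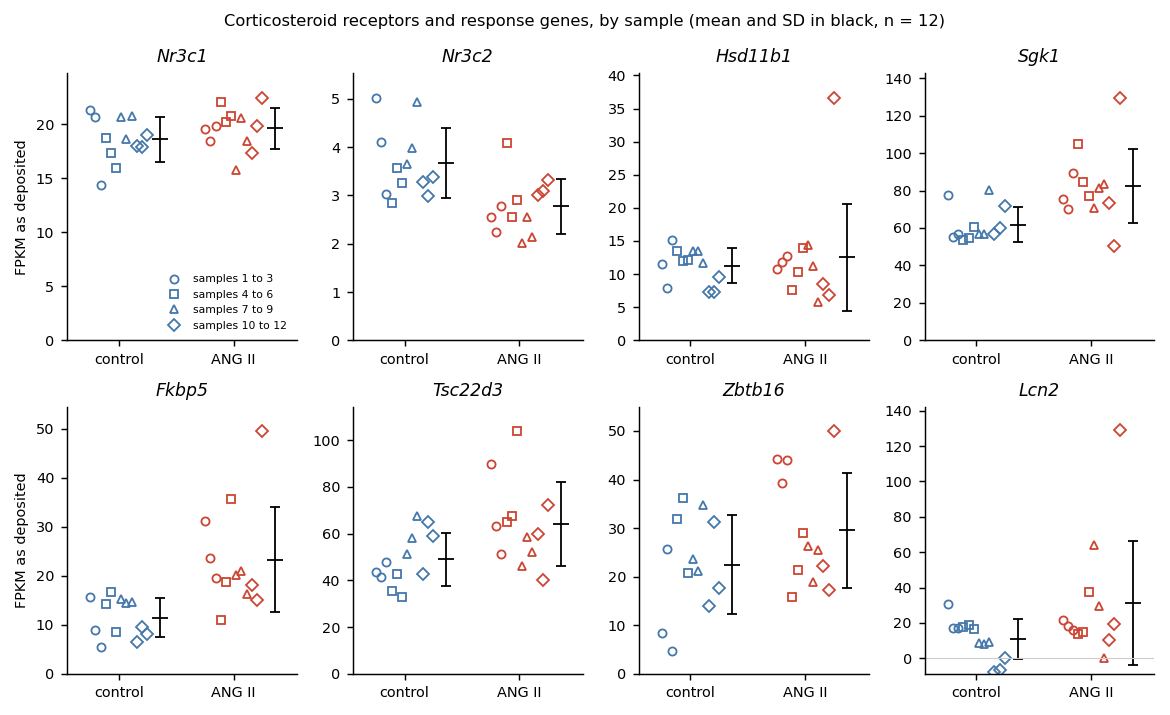
FPKM as deposited (vertical axes, linear) of the 8 genes in each of 12 control (blue) and 12 ANG II (red) samples, with marker shapes for the 4 sets of samples and the mean and SD of each group in black. In the Fkbp5 panel 9 ANG II samples lie above the highest control sample, and the highest ANG II point of the Hsd11b1, Sgk1, Fkbp5, Zbtb16, Nr3c1 and Lcn2 panels is sample 12.

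**Figure D2:**
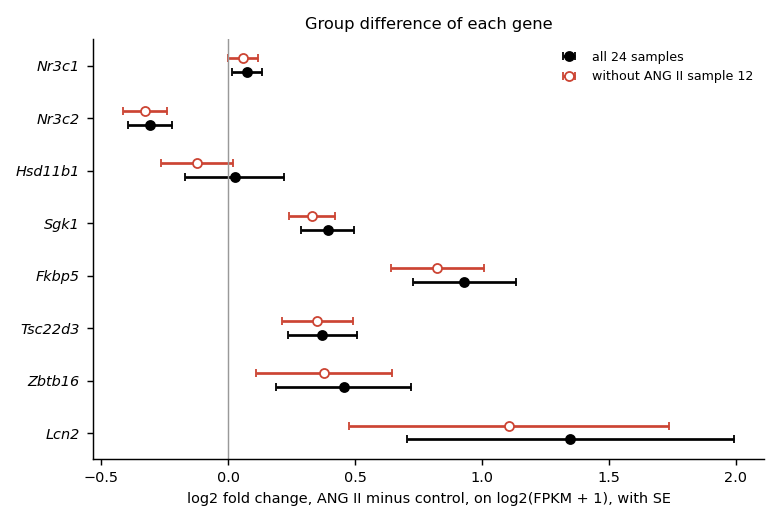
Log2 fold change of each gene, ANG II minus control, on the log2(FPKM + 1) scale (horizontal axis) with its standard error from limma, from all 24 samples (black) and without ANG II sample 12 (red, open). Fkbp5 lies at 0.93 with all samples and 0.82 without that sample, and Nr3c2 is on the negative side in both fits.

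In both groups far more Nr3c1 than Nr3c2 was measured. Nr3c1, the glucocorticoid receptor, ranged from 14.4 to 21.3 FPKM in control samples (median 18.7) and from 15.8 to 22.5 in ANG II samples (median 19.8). The groups overlapped over most of their range. Its group means were 18.6 ± 2.08 and 19.6 ± 1.89 FPKM (SD, n = 12 each), a log2 fold change of 0.08 ± 0.06 (SE, limma adjusted p = 0.341). The 95% interval of that change ran from -0.05 to 0.20. Before the adjustment its differences, ANG II minus control, were 0.157, 3.39, -1.39 and 1.56 FPKM in the 4 sets in order.

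Nr3c2, the mineralocorticoid receptor, lies on chromosome 8 from 76899442 to 77245012 in GENCODE vM21 on GRCm38. It ranged from 2.84 to 5.03 FPKM in control samples (median 3.48) and from 2.02 to 4.09 in ANG II samples (median 2.67). In the ANG II group 7 samples were below the lowest control sample, and 1, sample 4, was above the control median. The group means were 3.67 ± 0.722 and 2.77 ± 0.572 FPKM (SD, n = 12 each), and Nr3c2 fell by 0.31 ± 0.09 on the log2 scale (SE, limma adjusted p = 0.00794). The decrease was seen in samples 1 to 3 and 7 to 9, with log2 differences of -0.50 and -0.67, against -0.03 and -0.02 in the second and last sets. The difference between sets did not pass the test (limma interaction, adjusted p = 0.0718). The call was lost without samples 1 to 3 (adjusted p = 0.0691) and without samples 7 to 9 (adjusted p = 0.133). With the recovered differences, which were -1.63, 0.273, -1.70 and -0.213 FPKM in the 4 sets, the adjusted p was 0.0524 in the exact permutation test.

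The ratio of Nr3c1 to Nr3c2 within a sample was higher in the ANG II group. It ranged from 4.20 to 6.60 in control samples (median 4.98) and from 5.40 to 8.59 in ANG II samples (median 7.40), and 9 of the 12 ANG II samples lay above the highest control sample. The mean ratio was 5.17 ± 0.718 and 7.24 ± 0.996 (SD, n = 12 each). The log2 ratio, taken after adding 1 FPKM to each gene, was higher by 0.38 in the ANG II group (two-sided permutation test, p = 3e-05). With labels exchanged only within sets the exact permutation p was 1.25e-04, and without any 1 set the difference was between 0.32 and 0.46. These tests were run on deposited values, whose adjustment had drawn on the group labels, and take no account of that. The estrogen receptors were scarce. Esr1 and Esr2 had group means between 0.121 and 0.204 FPKM, and 0 of these 2 genes were called (limma, with 0 at an unadjusted p under 0.05 and 0 called by the rank sum or the recovered differences).

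**Figure D3:**
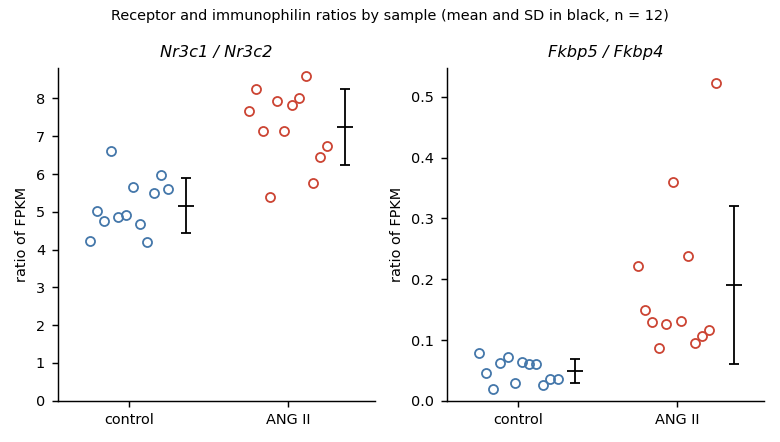
Ratios of FPKM within each sample (vertical axes, linear) for Nr3c1 over Nr3c2 (left) and Fkbp5 over Fkbp4 (right), with 12 control (blue) and 12 ANG II (red) samples and the mean and SD of each group in black. For Nr3c1 over Nr3c2, 9 ANG II samples lie above the highest control sample, and for Fkbp5 over Fkbp4 all 12 do.

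Hsd11b1 encodes the enzyme that regenerates active glucocorticoid from its inert form inside cells, and lies on chromosome 1 from 193221634 to 193264075. It ranged from 7.27 to 15.2 FPKM in control samples (median 11.8). In ANG II samples it ranged from 5.71 to 36.7 FPKM (median 11.0), and the highest value, of sample 12, stood far above the next, 14.4 FPKM. The log2 fold change was 0.03 ± 0.19 with all samples (SE, limma adjusted p = 0.930) and -0.12 ± 0.14 without sample 12 (limma adjusted p = 0.528). Without that sample the ANG II mean was 10.3 ± 2.87 FPKM (SD, n = 11), against 11.2 ± 2.66 in the control group (SD, n = 12). Hsd11b2, which inactivates glucocorticoid, was scarce, at 0.109 ± 0.0881 and 0.159 ± 0.119 FPKM (SD, n = 12 each). Of 6 tested genes of steroid supply and breakdown, Star, which moves cholesterol into mitochondria for steroid synthesis, rose from 2.22 ± 0.574 to 3.91 ± 1.78 FPKM (SD, n = 12 each), a log2 fold change of 0.55 ± 0.15 (SE, limma adjusted p = 0.00662), and the other 5 were not called. Over all genes tested, 20.9% were called higher. Cyp11b1, Cyp11b2 and Hsd3b1, which make corticosteroids, were not among the genes of the table and could not be analysed here.

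Fkbp5 showed the clearest difference of the 8 genes. It encodes an immunophilin of the receptor complex that lowers the affinity of the glucocorticoid receptor for hormone, and it is itself raised by glucocorticoid. It lies on chromosome 17 from 28399094 to 28517527. It ranged from 5.56 to 16.6 FPKM in control samples (median 11.9) and from 11.0 to 49.6 in ANG II samples (median 19.8). The groups overlapped only through ANG II samples 4, 9 and 11, and the other 9 were above the highest control sample. The means were 11.5 ± 3.96 and 23.3 ± 10.7 FPKM (SD, n = 12 each), a log2 fold change of 0.93 ± 0.20 (SE, limma adjusted p = 0.00121). The log2 differences of the 4 sets were 1.30, 0.59, 0.35 and 1.48, all in the same direction. Before the adjustment the differences were 14.8, 8.92, 8.64 and 22.4 FPKM, with an adjusted p of 0.00254 (exact permutation test within sets). Without ANG II sample 12 the log2 fold change was 0.82 (limma adjusted p = 0.00156).

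The related immunophilin Fkbp4, which favors hormone binding and nuclear entry of the receptor, went the other way. Its mean was 240 ± 28.7 FPKM in control samples, with a range of 194 to 289. In ANG II samples the mean was 136 ± 28.4 FPKM, with a range of 87.7 to 169.9 (SD, n = 12 each), so that the groups did not overlap. Only 0.756% of all genes tested had groups that did not overlap. Fkbp4 fell by 0.84 ± 0.10 on the log2 scale (SE, limma adjusted p = 3.03e-06), and the recovered differences within sets averaged -101 FPKM (exact permutation test, adjusted p = 0.00156). The ratio of Fkbp5 to Fkbp4, put together after the values were seen and given with no test, was 0.0492 ± 0.0192 in control samples and 0.191 ± 0.130 in ANG II samples (SD, n = 12 each). Of the 14 chaperones and co-regulators of the receptors, 2 rose and 3 fell, against 20.9% and 12.6% of all genes tested. Hsp90aa1, the inducible form of heat shock protein 90, rose from 81.7 ± 9.67 to 104 ± 11.1 FPKM (limma adjusted p = 1.98e-04), and Ptges3, the p23 cochaperone, from 37.0 ± 2.50 to 41.8 ± 4.19 (limma adjusted p = 0.0115). Ppp5c, a phosphatase of the complex, fell from 53.7 ± 2.68 to 49.7 ± 2.30 FPKM (limma adjusted p = 0.0103, SD, n = 12 each). The median log2 fold change of this list was 0.05, as over all genes.

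Sgk1 encodes a kinase induced by both receptors that raises sodium transport and takes part in hypertrophy, and lies on chromosome 10 from 21882184 to 21999903. It was the most abundant of the 8 genes, with 53.6 to 80.4 FPKM in control samples (median 57.0) and 50.4 to 129.7 in ANG II samples (median 79.2). In the ANG II group 6 samples were above the highest control sample, and 1, sample 11, was below the lowest. The means were 61.8 ± 9.29 and 82.6 ± 19.7 FPKM (SD, n = 12 each), a log2 fold change of 0.39 ± 0.11 (SE, limma adjusted p = 0.00613). The log2 differences of the sets were all positive, at 0.31, 0.64, 0.29 and 0.32. In the last set ANG II samples 10, 11 and 12 had 73.2, 50.4 and 129.7 FPKM, against 56.9, 60.2 and 71.5 in control samples. The positive difference of that set rested on ANG II sample 12. Before the adjustment the differences were 15.1, 29.2, 13.2 and 26.2 FPKM (exact permutation test within sets, adjusted p = 0.0372). The call was lost without samples 4 to 6, where the log2 fold change was 0.31 (limma adjusted p = 0.0944). It was kept without ANG II sample 12, at 0.33 (limma adjusted p = 0.00765).

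Of 11 tested genes linked to the mineralocorticoid receptor in kidney or heart, 4 rose and 1 fell, against 20.9% and 12.6% of all genes tested. Lgals3, which encodes galectin-3, rose from 6.87 ± 5.09 to 20.4 ± 11.6 FPKM, with a log2 fold change of 1.46 ± 0.30 (SE, limma adjusted p = 7.80e-04). Nedd4l, a ubiquitin ligase of the epithelial sodium channel that the SGK1 kinase inhibits, fell from 7.18 ± 0.485 to 6.31 ± 0.466 FPKM (-0.16 ± 0.04, limma adjusted p = 0.00514, SD, n = 12 each). The median log2 fold change of the list was 0.09, close to the 0.05 over all genes. Of the 10 tested relatives, activators and substrates of SGK1, 0 were called with all samples (limma), although 5 had an unadjusted p under 0.05 and the rank sum and the recovered differences each called 1. Without ANG II sample 12, 1 of these 10 was called lower.

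Tsc22d3, which encodes the glucocorticoid-induced leucine zipper protein GILZ, is a mediator of the anti-inflammatory action of glucocorticoid and lies on chromosome X from 140539528 to 140600659. It ranged from 32.8 to 67.4 FPKM in control samples (median 45.5) and from 40.3 to 103.9 in ANG II samples (median 61.4), and 4 ANG II samples were above the highest control sample. The means were 48.9 ± 11.3 and 64.1 ± 18.0 FPKM (SD, n = 12 each), a log2 fold change of 0.37 ± 0.14 (SE, limma adjusted p = 0.0380). The increase was seen in samples 1 to 3 and 4 to 6, with log2 differences of 0.57 and 1.05, while the other sets had -0.17 and 0.03. This difference between sets passed the test on deposited values, which had been scaled by set (limma interaction, adjusted p = 0.0486), as it did for 7.49% of all genes. The call of the group difference was lost in 11 of the 24 fits that left out 1 sample, with adjusted p up to 0.0716. The samples were ANG II 1, 4, 5, 6 and 12 and control 1, 2, 4, 5, 6 and 10. Without samples 4 to 6 the log2 fold change was 0.15 (limma adjusted p = 0.465). Before the adjustment the differences were 24.7, 51.4, 1.02 and 3.77 FPKM (exact permutation test within sets, adjusted p = 0.0247).

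Zbtb16 encodes the transcription factor PLZF, which glucocorticoid raises in many tissues, and lies on chromosome 9 from 48654297 to 48836222. It ranged from 4.64 to 36.2 FPKM in control samples (median 22.4) and from 15.8 to 50.0 in ANG II samples (median 26.0). The means were 22.5 ± 10.1 and 29.5 ± 11.8 FPKM (SD, n = 12 each), a log2 fold change of 0.45 ± 0.27 that did not pass the test (SE, limma adjusted p = 0.188). In samples 1 to 3 the log2 difference was 1.95, and in the other sets it was -0.41, -0.14 and 0.42. The interaction with set had an adjusted p of 0.0549 (limma). Before the adjustment the differences were 40.9, -6.65, 1.42 and 8.88 FPKM, so that the third set was positive there (exact permutation test within sets, adjusted p = 0.152). Without samples 1 to 3 the log2 fold change was -0.04 (limma adjusted p = 0.885).

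Among 24 other genes that glucocorticoid is known to induce, 11 rose and 0 fell. Of all genes tested, 20.9% were called higher. Their median log2 fold change was 0.38, against 0.05 over all genes, and 20 of the 24 were positive, against 63.8% of all genes tested. Nfkbia, the inhibitor of NF-κB, rose from 38.1 ± 5.75 to 54.8 ± 9.92 FPKM, a log2 fold change of 0.51 ± 0.10 (limma adjusted p = 3.91e-04). Glul, glutamine synthetase, rose from 239 ± 38.8 to 316 ± 38.0 FPKM (0.41 ± 0.08, limma adjusted p = 5.05e-04, SD, n = 12 each), and 9 ANG II samples exceeded the highest control sample for each of these genes. The other 9 that rose were Mt2, Mt1, Cdkn1a, Fam107a, Ddit4, Anxa1, Cebpd, Cd163 and Errfi1, named after their values were seen, with log2 fold changes from 0.37 to 1.43. Several classical targets were not called. Klf9, Dusp1 and Klf15, also named after their values were seen, had log2 fold changes of 0.17, -0.01 and -0.19 (limma adjusted p = 0.411, 0.970 and 0.257). The count of 11 was 7 without samples 1 to 3, 7 without samples 7 to 9 and 7 with the recovered differences within sets. Of all genes tested in these settings, 29.7%, 27.1% and 28.5% were called in either direction, so that 7 of 24 lay near the background. A promoter window was at hand for 21 of the 24, and 3 of these genes (14.3%) held the hexamer, against 18.2% of 27025 genes. Many of these genes respond to other signals as well, and the 24 were listed with earlier results of these data known.

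**Figure D4:**
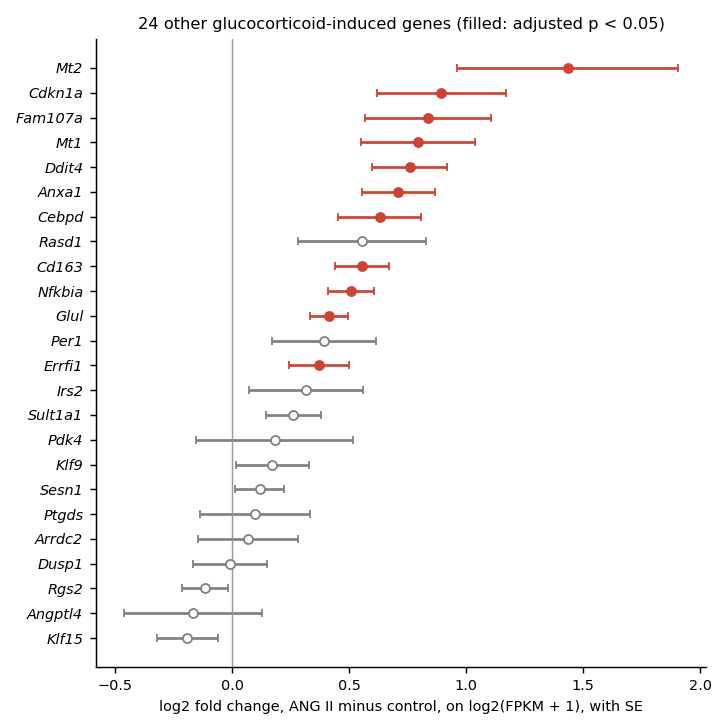
Log2 fold change, ANG II minus control, on the log2(FPKM + 1) scale (horizontal axis) with its standard error from limma for 24 other glucocorticoid-induced genes, ordered by size, with genes at an adjusted p under 0.05 filled. The 11 filled genes all lie to the right of 0, and the largest value is 1.43 for Mt2.

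ANG II sample 12 had high values of many of these genes. It was the highest of the 12 ANG II samples for 6 of the 8 genes, while no other ANG II sample was highest for more than 1. It was also the highest for 19 of the 24 other glucocorticoid-induced genes (79.2%), against 17.9% of all genes tested. The next sample was highest for 2 of the 24, although over all genes tested sample 6 was highest more often than sample 12 (3409 against 2509 genes). Sample 12 was also the highest for 6 of the 10 relatives, activators and substrates of SGK1, 4 of 8 neutrophil markers and 4 of 8 cardiomyocyte markers. Among other markers it was highest for 1 of 8 macrophage, 0 of 8 fibroblast, 0 of 6 endothelial and 0 of 5 adipocyte genes. For the macrophage markers Cd68 and C1qb it was the lowest ANG II sample. Its median correlation with the other ANG II samples over all genes tested was 0.978, the lowest of the 12, against 0.981 to 0.990 for the others. Mt2, a metallothionein, was 1681 FPKM in sample 12 against at most 447.5 in the other 11. The summed level of the 24 genes was 7392 FPKM in sample 12 against an ANG II median of 2929. Most of the sum in sample 12 came from Mt1 (2482 FPKM), Mt2 (1681), Pdk4 (961) and Ptgds (849). Without sample 12, 3 of the 8 genes were called, 2 higher and 1 lower, against 33.2% of all genes tested in that fit, and 11 of the 24 were still called higher. Tsc22d3 was the gene whose call was lost, with an adjusted p of 0.0564 (limma).

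Lcn2 encodes lipocalin-2, an iron-carrier-binding protein of neutrophils and of the acute phase that mineralocorticoid and glucocorticoid raise, and lies on chromosome 2 from 32384633 to 32388252. Its values varied most of the 8. In control samples it ranged from -7.61 to 30.6 FPKM (median 12.8), with negative values in samples 10 and 11. In ANG II samples it ranged from 0.381 to 129 (median 18.9), with sample 12 highest and 63.9 next. The means were 10.7 ± 11.2 and 31.3 ± 34.8 FPKM (SD, n = 12 each), and the log2 fold change of 1.35 ± 0.64 did not pass the test (SE, limma adjusted p = 0.107). The log2 differences of the sets were -0.15, 0.16, 0.56 and 4.82, and the last set holds the negative control values, which were taken as 0. On deposited values, which had been scaled by set, these differed between sets (limma interaction, adjusted p = 0.0481). Before the adjustment the differences were -2.48, 9.06, 22.8 and 85.4 FPKM. In the last set ANG II samples 10, 11 and 12 lay 9.26, 25.3 and 222 FPKM above the control mean of the set. The exact permutation test within sets, which was not run without sample 12, called Lcn2 higher (adjusted p = 0.0304). Without ANG II sample 9, whose value of 0.381 FPKM was the lowest of its group, limma called it as well (adjusted p = 0.0248), and without samples 10 to 12 the log2 fold change was 0.19 (limma adjusted p = 0.806).

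Of 11 tested receptors of lipocalin-2 and acute-phase genes, 3 rose and 0 fell, against 20.9% and 12.6% of all genes tested. Serpina3n, an acute-phase serpin, rose from 19.3 ± 49.8 to 157 ± 135 FPKM (limma adjusted p = 0.0150), and Saa3, a serum amyloid A gene, from 0.320 ± 0.992 to 2.83 ± 2.75 (limma adjusted p = 0.00927, SD, n = 12 each). The third was Il6, named after its values were seen, at a mean of 0.516 FPKM in ANG II samples. Of 8 tested neutrophil markers, Csf3r rose from 1.92 ± 0.895 to 3.09 ± 1.12 FPKM (limma adjusted p = 0.0161, SD, n = 12 each), and its adjusted p with the recovered differences was 0.104 (exact permutation test). S100a8 was 2.72 ± 3.10 in control samples and 2.79 ± 2.21 FPKM in ANG II samples (limma adjusted p = 0.754). The granule genes Camp and Ltf were near 0, at no more than 0.167 FPKM on average in either group. The summed neutrophil markers ranged from 4.88 to 55.0 FPKM in control samples and from 2.83 to 27.7 in ANG II samples, with sample 12 highest. Their part in the values of Lcn2 was not tested.

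**Figure D5:**
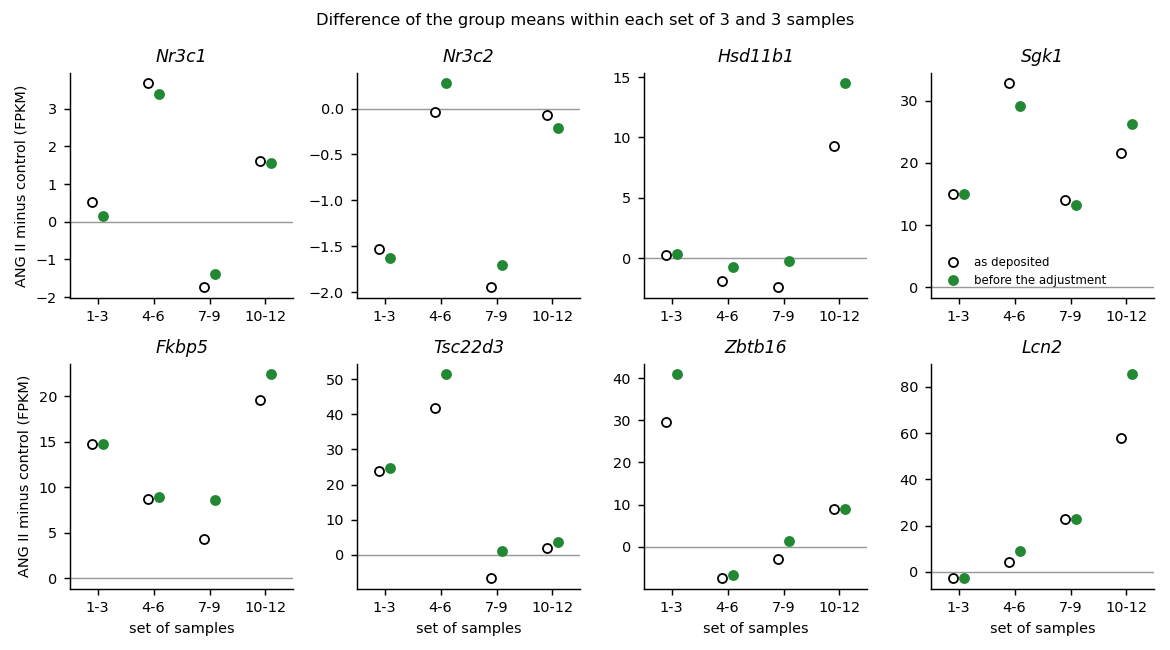
Difference of the group means in FPKM, ANG II minus control (vertical axes, linear, a scale for each gene), within each set of 3 control and 3 ANG II samples (horizontal axes), as deposited (open) and before the adjustment (green). All 4 differences of Fkbp5 and Sgk1 are positive on both scales, and those of Lcn2 range from -2.48 to 85.4 FPKM before the adjustment.

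In a whole ventricle, fewer cells of a type and less RNA per cell cannot be told apart. Markers of other cell types moved with the groups, and their part in the results above was not tested. Over all genes tested, 20.9% were called higher and 12.6% lower. All 8 macrophage markers rose, and their summed level ranged from 141 to 293 FPKM in control samples and from 208 to 554 in ANG II samples. Cd68 rose from 13.2 ± 4.85 to 26.8 ± 11.4 FPKM and C1qb from 70.2 ± 20.9 to 119 ± 40.7 (limma adjusted p = 0.00290 and 0.00232, SD, n = 12 each). Without samples 4 to 6, 0 of these 8 markers were called (limma), and 4 had an unadjusted p under 0.05. Without ANG II sample 6 or without ANG II sample 8, 5 of them were called. Of 8 cardiomyocyte markers, 3 fell and 0 rose, with summed levels from 31489 to 40101 FPKM in control samples and from 23891 to 33050 in ANG II samples. Tnni3 fell from 6458 ± 618 to 4211 ± 609 FPKM and Myl2 from 13232 ± 1602 to 9452 ± 1871 (limma adjusted p = 8.06e-06 and 0.00141, SD, n = 12 each). Ryr2, Ttn and Actn2, named after their values were seen, had positive log2 fold changes of 0.01, 0.11 and 0.17 and were not called. Of 8 fibroblast markers 3 rose and 1 fell, with summed levels from 662 to 1417 FPKM in control samples and from 1007 to 2512 in ANG II samples. The 4 called became 2 without control sample 4, without control sample 5 and without samples 4 to 6. Of 6 endothelial markers 1 rose and 1 fell, with sums of 326 to 419 and 305 to 484 FPKM. The 2 called became 1 without any of ANG II samples 1, 6 and 12 and control samples 1, 4 and 10. Of 5 adipocyte markers 0 were called (limma, with 0 at an unadjusted p under 0.05 and 0 by the rank sum or the recovered differences), with sums of 0 to 55.9 and 2.77 to 69.5 FPKM.

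By mean level in control samples the order was Sgk1, Tsc22d3, Zbtb16, Nr3c1, Fkbp5, Hsd11b1, Lcn2 and Nr3c2. In ANG II samples it was Sgk1, Tsc22d3, Lcn2, Zbtb16, Fkbp5, Nr3c1, Hsd11b1 and Nr3c2. Neighbours were compared within samples on log2(FPKM + 1) by an exact permutation test with changes of sign, adjusted over the 14 pairs of both groups, of which 8 differed. The order and these tests hold for deposited values, which had been shifted and scaled within sets. Levels before that step were not recovered. Sgk1 was above Tsc22d3 in 10 of 12 samples of each group (exact permutation test, adjusted p = 0.00684 in control and 0.0197 in ANG II samples). Tsc22d3 was above Zbtb16 in 12 of 12 control samples (adjusted p = 0.00228). Nr3c1 was above Fkbp5 in 12 of 12 control samples (exact permutation test, adjusted p = 0.00228). In ANG II samples Fkbp5 and Nr3c1 did not differ beyond their spread, with Fkbp5 above in 7 of 12 (exact permutation test, adjusted p = 0.467). In control samples, Zbtb16 and Nr3c1, Fkbp5 and Hsd11b1, Hsd11b1 and Lcn2, and Lcn2 and Nr3c2 also did not differ beyond their spread. In ANG II samples the same was true of Lcn2 and Zbtb16.

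Correlations across the 24 samples, after the mean of each group in each set was removed, describe which genes varied together from mouse to mouse. They share libraries and the adjustment, and no test is given. Fkbp5 and Tsc22d3 had Pearson's r = 0.66 (0.58 without ANG II sample 12), and Fkbp5 and Zbtb16 0.60 (0.47). Nr3c1 and Nr3c2 had r = 0.64 (0.64). Hsd11b1 and Lcn2 had r = 0.77 (0.73). Sgk1 had r = 0.36 with Fkbp5, which was -0.10 without ANG II sample 12, and 0.54 with Nr3c2 (0.66).

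Over 11458 genes with a mean of at least 1 FPKM, the 3 with the pattern most like that of each gene were as follows. For Fkbp5 they were Plin4 (r = 0.91), which coats lipid droplets, Mylip (0.90) and Wdr43 (0.90). For Tsc22d3 they were Fam107a (0.85), which is also on the list of glucocorticoid-induced genes, Slc10a6 (0.81) and Cdh19 (0.81). For Zbtb16 they were Epb41 (0.86), Tmem184c (0.84) and Ppid (0.82), an immunophilin of the heat shock protein 90 complex. For Sgk1 they were Actr8 (0.86), Osbp (0.83) and Chka (0.82), and these values were 0.71, 0.67 and 0.64 without ANG II sample 12. For Nr3c1 they were Cnot6l (0.95), Ankle2 (0.95) and Ppp2r5e (0.93), and for Nr3c2 Tcf20 (0.81), L3mbtl3 (0.81) and Chmp4c (0.80). For Hsd11b1 they were Gpr146 (0.91), Lrg1 (0.90) and Ifitm1 (0.84), with 0.80, 0.74 and 0.70 without ANG II sample 12. For Lcn2 they were Serpina3i (0.94), Clec4d (0.93) and Serpina3n (0.90), and without ANG II sample 12 these were 0.92, 0.90 and 0.91.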

How the data were processed

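RNA from left ventricles, selected with oligo(dT), was sequenced by the authors as paired-end Illumina reads. The submitters' notes name Bowtie2, HISAT and RSEM without roles or versions, and the build and annotation are not given in the sources used here. The authors deposited 1 FPKM value per gene and sample for 12 samples of each group. The other 4 samples per group that the paper counts were not analysed here. The deposited values had been adjusted gene by gene within 4 sets of 3 and 3 samples. The spacing of values on a grid of 0.01 FPKM matched an adjustment in which 1 group difference per gene is held out, the remainder is scaled within each set, and the held-out part is restored. This gave 1 solution for 13926 genes, in a search that stopped at the first combination of scales with a solution. The group labels thus entered the adjustment, and tests on deposited values take no account of it.

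Negative values were set to 0 for log2(FPKM + 1) and kept in means and SD. Genes with a mean of at least 0.1 FPKM were tested with limma 3.58.1 in R 4.3.3, an intensity trend in the variance, and p-values adjusted by Benjamini-Hochberg. The scripts were tested on simulated data, where the recovery was right for 195 of 200 genes and wrong for 5. Recovered differences were tested by all 160000 exchanges of labels within sets. Python 3.11.15, numpy 2.4.6, pandas 2.3.3, scipy 1.17.1 and matplotlib 3.10.9 were used otherwise, with 100000 resamples in permutation tests. All tests were two-sided. Positions are those of GENCODE vM21, and promoter windows those of RefSeq on GRCm38.p6.

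Members and lists were chosen with earlier results of these data known. The text names all 8 genes, up to 2 genes per direction with the smallest adjusted p in each list of other genes, the 3 most correlated partners of each gene, and markers beside a result. Some genes that this rule names are not reported here. Alternatives were another pseudocount, filter, scaling, test or block, a term for the set, and leaving out samples or sets. The recovered differences and the exchange of labels within sets for the ratio were added after the data were seen.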

Additional observations from a re-analysis of the deposited data

Results flagged for a closer look

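For 2 of the 8 genes the group difference in deposited values differed between the 4 sets of samples, by the interaction of group and set in limma. Those values had been scaled by a different factor in each set, and the test takes no account of that. A background of 7.49% of all genes tested passed the same test. For Tsc22d3 the adjusted p was 0.0486, with log2 differences of 0.57, 1.05, -0.17 and 0.03 in the sets in order. Before the adjustment its differences were 24.7, 51.4, 1.02 and 3.77 FPKM, so that the third set was positive there. For Lcn2 the adjusted p was 0.0481, with log2 differences of -0.15, 0.16, 0.56 and 4.82, and the negative values of control samples 10 and 11 lie in the last set.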

How the results depend on the processing

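Same-numbered samples of the groups did not deviate together in the deposited values (correlations from -0.557 to -0.001, 0 of 12 pairs over 0.1, and 0 ANG II samples closest to their own number). The shift brought each set to a common level, which makes the groups of a set deviate in opposite directions. This check therefore cannot tell whether same-numbered samples were paired. With the replicate number as a block, 2824 genes (20.1%) in place of 4697 and 2 of the 8 genes were called, 0 of them lower, with 0.37 for Tsc22d3 (adjusted p = 0.121) and -0.31 for Nr3c2 (0.0570). Fkbp5 passed the threshold in all 15 alternatives other than single samples and in all 24 fits without 1 sample, with log2 fold changes from 0.82 to 1.01 in the latter. With a pseudocount of 0.1, 1489 genes passed the threshold with an absolute log2 fold change over 0.5, in place of 831. Without samples 4 to 6, 2802 genes (20%) were called, 552 of them with such a change, and 2 of the 8 genes, 1 of them higher, with 0.31 for Sgk1 and 0.15 for Tsc22d3. Without samples 1 to 3, 2 of the 8 were called, against 29.7% of all genes tested, and 0 were lower, with 0.30 for Tsc22d3 and -0.24 for Nr3c2. Without samples 7 to 9, 0 were lower, with -0.18 for Nr3c2. Tsc22d3 also missed the threshold without a logarithm (15.2 FPKM), with a term for the set and with the rank sum (0.37 in both). With recovered differences 0 of the 8 were lower, Nr3c2 missed the threshold (-0.82 FPKM) and Lcn2 passed it (28.7 FPKM). Without single samples, Tsc22d3 ranged from 0.30 to 0.43, Lcn2 from 1.07 to 1.70 and the count of the 8 genes called from 3 to 5. The cause was not tested, except that fewer samples enter some fits. Depth is unknown, and its effect on precision could not be given. The log2 ratio of Nr3c1 to Nr3c2 passed the threshold in all 7 alternatives, with p up to 0.00244 for pairs of the same number. Other list counts that moved by over 1.5 times, beside those given with the lists, were these. Without samples 4 to 6, 2 chaperones and co-regulators in place of 5, 0 genes of steroid supply (1 at an unadjusted p under 0.05) in place of 1, 1 acute-phase gene in place of 3 and 0 neutrophil markers (0) in place of 1 were called, and without samples 10 to 12, 3 genes linked to the mineralocorticoid receptor in place of 5 and 1 acute-phase gene. Without control sample 2, 5 acute-phase genes were called. With the block, 2 chaperones and co-regulators, 2 fibroblast, 5 macrophage, 1 endothelial and 0 neutrophil markers and 1 clock gene were called. Of the SGK1 relatives, 2 were called with median-ratio or quantile scaling and up to 3 without 1 sample. Without a logarithm 1 cardiomyocyte marker was called. With recovered differences, 0 cardiomyocyte markers were called in place of 3, but Tnni3 and Myl2 had no recovered value.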

Other observations

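Of 13 circadian clock genes, several of which glucocorticoid also controls, 1 rose and 3 fell, so that 4 of 13 were called against 33.5% of all genes tested. The count was 2 without samples 1 to 3 and 2 with the recovered differences. Without samples 7 to 9 it was 0 (limma), with 1 at an unadjusted p under 0.05. Clock rose from 6.94 ± 0.637 to 8.04 ± 0.819 FPKM (limma adjusted p = 0.0101). Nr1d1, a repressor of the clock, fell from 57.8 ± 21.4 to 33.7 ± 17.4 FPKM (limma adjusted p = 0.0136), and Hlf, a clock output factor, from 7.09 ± 1.79 to 5.04 ± 1.32 (limma adjusted p = 0.0207, SD, n = 12 each). With the recovered differences the adjusted p was 0.0236 for Clock, 0.0276 for Nr1d1 and 0.0931 for Hlf (exact permutation test), so that Hlf was not called. The time of day of sampling is not given in the sources used here.

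Of 6 red blood cell markers, 5 rose and 0 fell, against 20.9% and 12.6% of all genes tested. With the recovered differences 3 were called, but Hba-a1 had no recovered value. Hba-a1 rose from 286 ± 270 to 1025 ± 620 FPKM and Hbb-bt from 39.5 ± 33.7 to 127 ± 74.1 (limma adjusted p = 9.57e-04 and 0.00102, SD, n = 12 each). The summed level of the 6 genes ranged from 92.3 to 2949 FPKM in control samples and from 779 to 6445 in ANG II samples.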
